A study of Mus musculus with 16 samples.

Results

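The genes described here belong to the response of cells to DNA damage and stress that is centred on the transcription factor p53. The list held 10 genes, namely Trp53, which encodes p53 itself, Mdm2, Ccng1, Sesn1, Sesn2, Gadd45a, Gadd45b, Trp53inp1, Zmat3 and Perp. Every probe set whose platform gene symbol was one of these was taken, which gave 20 of the 45101 probe sets of the deposited table. They stand for 9 of its 18194 named genes, because the annotation used here gave no probe set for Trp53, which is not analysed here. Of the 20 probe sets, 19 gave enough signal to be tested. The other, 1425139_at of Sesn2, rose above the detection floor on 1 of the 16 arrays.

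Transcripts were measured on Affymetrix Mouse Genome arrays in B cells of C57BL/6 (B6) mice and of the congenic strain B6.Sle2c1 (Sle2c1), which carries a segment of the lupus-prone NZM2410 genome on the B6 background. Each strain gave peritoneal B1a cells, the innate-like CD5-positive B cells of the body cavities, and CD43-negative splenic B cells (Bs), with 4 arrays in each of the 4 groups. The mice were 5 months old and no treatment is recorded. The splenic cells were isolated with a kit to over 90% B220hi cells. The B1a cells were held in culture for 2 h so that macrophages would adhere, and were then selected with antibodies to Thy1.2, CD3ε and CD5, which gave 80% B220int CD5+ cells. Cell type and preparation therefore cannot be told apart. No label states whether an array stands for 1 mouse or a pool. If replicates shared their source, the p-values below measure technical spread only.

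In the textbook pathway, DNA damage activates the kinases Atm, Atr, Chek1 and Chek2, which stabilise p53. p53 then switches on genes that halt the cell cycle, repair DNA, limit oxidative damage or start apoptosis, and among them Mdm2, a ubiquitin ligase that marks p53 for destruction and so closes a feedback loop. Several of these targets also answer to other inputs. Gadd45b is induced through NF-kB, and the sestrin Sesn1 through the FoxO factors that are active in resting lymphocytes.

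All levels and differences are in units of the deposited score, whose log base and scaling are not given in the sources used here, so no difference is turned into a fold change. Values below 0.495 were raised to that value, called the floor. A difference from a group wholly at the floor is a lower bound if every array of the other group lies above the floor. A probe set passed at an adjusted p under 0.05 in limma's moderated test over 35032 probe sets, and all adjusted p-values below come from that test with Benjamini-Hochberg adjustment. A larger score means more signal, but fewer expressing cells and less RNA per cell cannot be told apart. Array medians ran from 0.68 to 1.12, and Sle2c1_B1a 4, B6_Bs 3 and B6_Bs 1 stood apart from their groups on the first 2 principal components, which held 46.4% and 16.5% of the variance. The marker genes followed the labels in part. Cr2 and Fcer2a, markers of mature splenic B cells, were lower in the B1a cells of both strains by 1.89 to 2.54 units. Cd5 lay at the floor on all 8 Bs arrays. It averaged 1.08 ± 0.304 (SD, n = 4) in B6_B1a and 0.745 ± 0.342 in Sle2c1_B1a, and passed as higher in B1a cells in B6 (adjusted p = 0.017) but not in Sle2c1 (adjusted p = 0.257). Of 7 B1a markers, 4 passed as higher in B6 (Cd5, Zbtb32, Ctla4 and Ahnak) and 3 in Sle2c1 (the same without Cd5), while Spn, Itgam and Bhlhe41 passed in neither.

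The main differences in this pathway lay between the cell types, as did most of those that passed among all probe sets tested. Sesn1 and Gadd45a were lower, and Zmat3 higher, in B1a than in Bs cells of both strains. The Gadd45a call in B6 was lost under 9 of 16 alternatives. The Zmat3 call in Sle2c1 was lost under 3 of 16 and in 4 of the 16 fits that left 1 array out. Gadd45b stood out between the strains: it was lower in Sle2c1 than in B6 B1a cells by 2 of its 3 probe sets and did not differ detectably in Bs cells. The strain call of 1 of these probe sets, 1450971_at, was lost under 3 of 16 alternatives. Mdm2, Ccng1, Sesn2, Trp53inp1 and Perp did not pass the test in any of the 5 comparisons. Between cell types in B6 mice, 3 of the 19 probe sets were higher and 5 lower in B1a cells, that is 42.1%, beside 19.9% of all probe sets tested (9.21% higher and 10.7% lower). In Sle2c1 mice 1 was higher and 6 lower, that is 36.8%, beside 24.8% of all (11.1% higher and 13.7% lower). Because 4 of these probe sets belong to Sesn1, the count of genes is the plainer one. With the brightest probe set of each gene, 4 of 9 genes passed in B6 and 3 of 9 in Sle2c1, beside 21.8% and 27.0% of all named genes. The groups did not overlap for 10 probe sets in B6 (22.1% of all) and for 8 in Sle2c1 (24.7% of all).

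**Figure D1:**
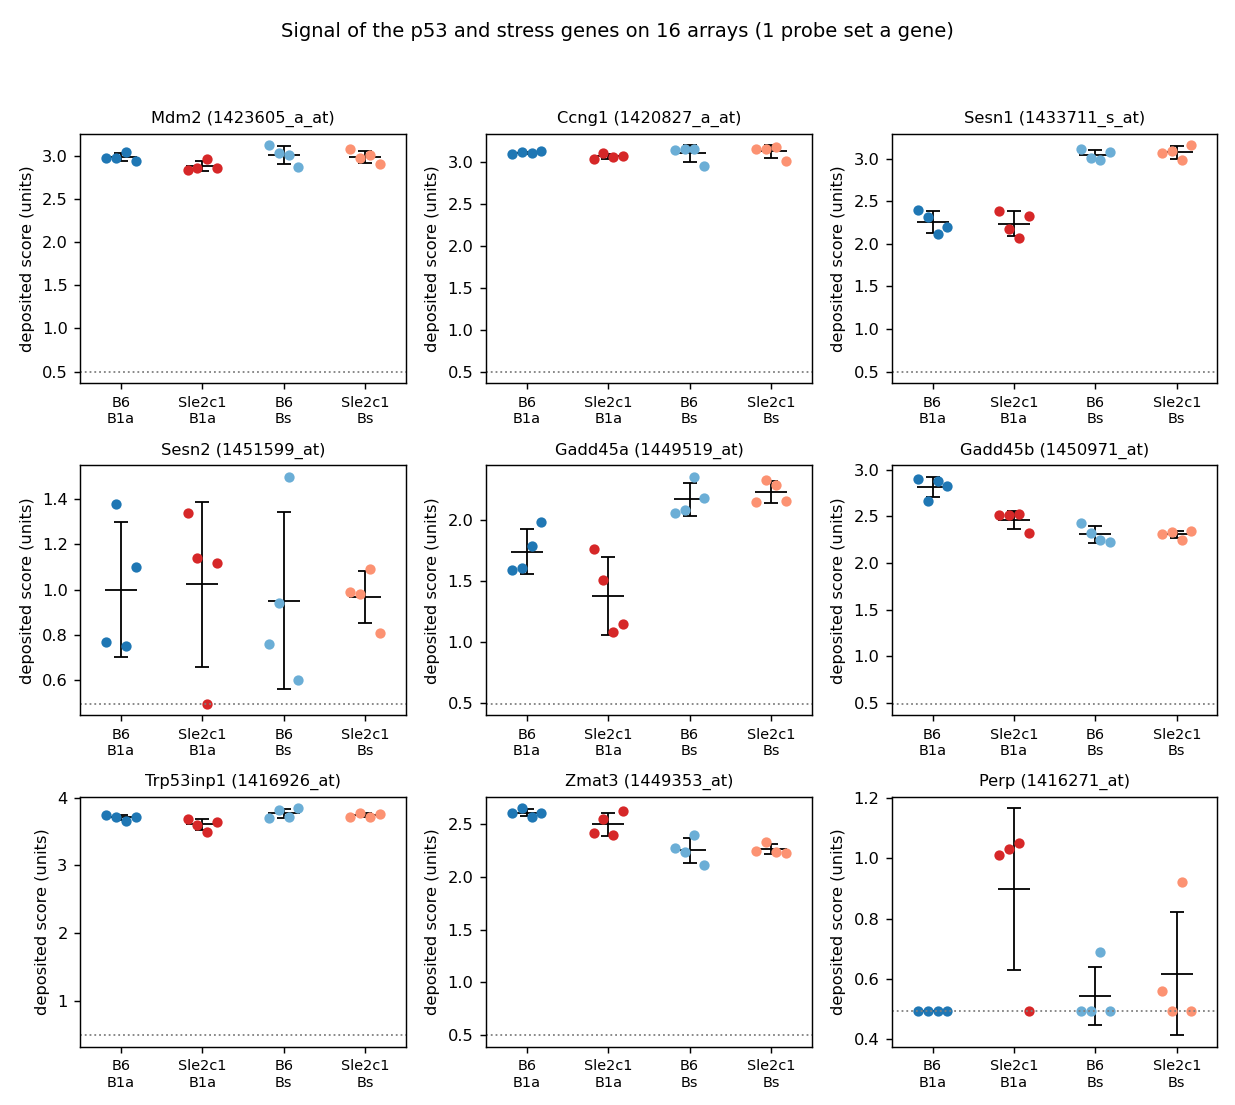
Level of each of the 9 measured genes on every array, by its brightest probe set, in units of the deposited score (vertical axis). Points are arrays, lines give the mean and SD of each group (n = 4) and the dotted line is the floor at 0.495. Sesn1 and Gadd45a lie lower, and Zmat3 higher, in both B1a groups than in both Bs groups, and Gadd45b lies highest in B6 B1a cells.

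Sesn1 encodes a sestrin, a stress-inducible protein that restrains mTORC1 and takes part in the handling of peroxides. Its brightest probe set, 1433711_s_at, read 2.40, 2.32, 2.11 and 2.20 in B6 B1a cells and 2.38, 2.17, 2.07 and 2.33 in Sle2c1 B1a cells. In Bs cells it read 3.11, 3.01, 2.98 and 3.08 in B6 and 3.07, 3.09, 2.98 and 3.16 in Sle2c1. All 8 B1a arrays lay below all 8 Bs arrays, and within each cell type the strains overlapped. B1a minus Bs was -0.79 (SE 0.0813, adjusted p = 7.99e-06) in B6 and -0.84 (SE 0.0813, adjusted p = 3.37e-06) in Sle2c1.

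The other 3 Sesn1 probe sets were lower in B1a cells of both strains as well. Probe set 1438931_s_at differed by -0.77 (adjusted p = 7.76e-05) in B6 and by -0.85 (adjusted p = 2.33e-05) in Sle2c1. Probe set 1454699_at differed by -0.885 (adjusted p = 0.0121) and by -1.27 (adjusted p = 0.000725), with a wide spread in Sle2c1 B1a cells (0.57 to 1.93). The dimmest, 1444376_at, lay at the floor on all 4 Sle2c1 B1a arrays, so that its difference of -1.02 in Sle2c1 (adjusted p = 0.000209) is a lower bound, and in B6 it differed by -0.71 (adjusted p = 0.00487, and 0.222 with no floor set). Probe sets 1433711_s_at and 1454699_at were designed on the same source sequence and are not independent measures. Between strains no Sesn1 probe set passed. In B1a cells 1454699_at differed by -0.35 (95% interval -0.822 to 0.127), and 1444376_at by -0.32 (adjusted p = 0.298). The latter is not a bound, because B6_B1a 1 lay at the floor as well as the Sle2c1 arrays.

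Gadd45a encodes a small protein that binds Cdk1 and PCNA and takes part in G2 arrest and DNA repair. Its single probe set, 1449519_at, read 1.59, 1.60, 1.78 and 1.98 in B6 B1a cells and 1.76, 1.51, 1.08 and 1.15 in Sle2c1 B1a cells. In Bs cells it read 2.05, 2.08, 2.35 and 2.18 in B6 and 2.14, 2.32, 2.28 and 2.15 in Sle2c1. The highest B1a array of either strain lay below the lowest Bs array. B1a minus Bs was -0.85 in Sle2c1 (SE 0.137, adjusted p = 0.000412). In B6 it was -0.43 (SE 0.137, adjusted p = 0.0416), which was lost in 10 of the 16 fits that left 1 array out (adjusted p up to 0.118, without B6_Bs 3) and under 9 of 16 alternatives (adjusted p up to 0.11), the replicate block among them (adjusted p = 0.0722). The cell type differences of the strains differed by -0.42, which did not pass (adjusted p = 0.64). Within B1a cells the Sle2c1 mean of 1.38 ± 0.318 (n = 4) was below the B6 mean of 1.74 ± 0.184, with overlapping arrays and no pass (difference -0.36, adjusted p = 0.185). Without Sle2c1_B1a 1, the highest of its group, that difference was -0.49 and passed (adjusted p = 0.0352).

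The promoters of the 3 genes with the largest spread of group means are shown because their transcripts moved between the groups. Each is the RefSeq sequence of the 250 bases before the gene's start in GRCm38.p6, written along the gene's own strand, with matches to 5 motifs in capitals. Gadd45a lies on chromosome 6 (chr6:67037408-67037657, minus strand). Sesn1 is shown at the more downstream of its 2 starts (chr10:41887189-41887438, plus strand), and Gadd45b lies on the same chromosome (chr10:80929841-80930090, plus strand).
Gadd45a: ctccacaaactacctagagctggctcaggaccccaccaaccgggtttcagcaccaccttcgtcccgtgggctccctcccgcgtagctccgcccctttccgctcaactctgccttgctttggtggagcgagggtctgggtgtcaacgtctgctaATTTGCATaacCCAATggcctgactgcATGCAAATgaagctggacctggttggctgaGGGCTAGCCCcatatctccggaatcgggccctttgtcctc
Sesn1: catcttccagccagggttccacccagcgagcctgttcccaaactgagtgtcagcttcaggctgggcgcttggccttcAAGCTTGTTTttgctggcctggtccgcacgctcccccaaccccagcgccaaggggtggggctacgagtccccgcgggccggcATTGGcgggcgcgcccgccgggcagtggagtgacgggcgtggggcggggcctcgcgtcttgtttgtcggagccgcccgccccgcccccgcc
Gadd45b: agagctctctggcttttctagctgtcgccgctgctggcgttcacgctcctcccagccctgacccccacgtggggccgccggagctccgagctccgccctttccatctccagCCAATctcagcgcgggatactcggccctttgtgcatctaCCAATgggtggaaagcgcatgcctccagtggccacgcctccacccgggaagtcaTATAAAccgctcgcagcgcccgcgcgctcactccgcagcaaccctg
The motifs were chosen after the sequences were seen and searched on both strands, and no matches overlapped in these 3 promoters. They were the p53 decamer, the kappaB site, the octamer ATGCAAAT, CCAAT and TATAAA, which 7.13%, 7.25%, 1.6%, 33.8% and 12.4% of 32851 promoters of this length hold. The Gadd45a window held 2 octamers, the motif of the factors Oct1 and Oct2, which begin 97 and 70 bases before the start. It also held CCAAT at 86 and a p53 decamer at 40 bases. The Sesn1 window held a p53 decamer at 173 bases and CCAAT at 91, whereas the window of the upstream start, not shown, held CCAAT at 197 bases and no p53 decamer. The Gadd45b window held CCAAT at 139 and 100 bases and TATAAA at 46, and no letters of the p53 decamer or the kappaB site. A match is a description of the letters and not of binding. Promoters were given for 7 of the 10 genes.

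Gadd45b is the relative of Gadd45a that is induced by NF-kB, cytokines and TGF-beta, and it binds and inhibits the kinase MKK7 upstream of JNK. Its brightest probe set, 1450971_at, read 2.90, 2.66, 2.88 and 2.82 in B6 B1a cells and 2.51, 2.51, 2.52 and 2.32 in Sle2c1 B1a cells. In Bs cells it read 2.43, 2.32, 2.25 and 2.23 in B6 and 2.31, 2.33, 2.25 and 2.34 in Sle2c1. Every B6 B1a array lay above every array of the other groups. The strain difference in B1a cells was -0.35 (SE 0.0708, adjusted p = 0.0129), and with only the 8 B1a arrays in the fit it did not pass (adjusted p = 0.0845), nor after median centring of the arrays (adjusted p = 0.0501).

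The second Gadd45b probe set, 1420197_at, read 2.34, 2.03, 2.15 and 2.17 in B6 B1a cells and 1.59, 1.66, 1.49 and 1.41 in Sle2c1 B1a cells. In Bs cells it read 1.97, 1.87, 1.80 and 1.59 in B6 and 1.88, 1.77, 1.76 and 1.83 in Sle2c1. B6 B1a cells were again highest on every array, and here the Sle2c1 B1a arrays lay below all Sle2c1 Bs arrays. The strain difference in B1a cells was -0.635 (SE 0.0884, adjusted p = 0.000812). It passed in every alternative that gave a value and without any single array. The third probe set, 1449773_s_at, differed by -0.62 and did not pass (SE 0.187, adjusted p = 0.091). It passed without Sle2c1_B1a 4 (-0.76, adjusted p = 0.0355), after median centring (adjusted p = 0.0283) and with array weights (adjusted p = 0.0456). Its B6 B1a arrays lay between 1.61 and 1.91 and its Sle2c1 B1a arrays between the floor and 1.57.

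These 2 were the only members that passed between strains in B1a cells, both lower in Sle2c1, which is 10.5% of the 19 beside 3.51% of all probe sets (1.64% lower). With 1 probe set per gene it was 1 of 9 genes, beside 3.54% of named genes. The groups did not overlap for 3 members, all of them Gadd45b, beside 8.36% of all probe sets. The median difference of the 19 was -0.10, and that of all probe sets tested 0.015.

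Between cell types, Gadd45b was higher in B1a than in Bs cells of B6 mice, by 0.51 for 1450971_at (SE 0.0708, adjusted p = 0.000148) and by 0.365 for 1420197_at (SE 0.0884, adjusted p = 0.00993, and 0.0507 after median centring). For 1449773_s_at the difference was 0.42 and did not pass (adjusted p = 0.128, and 0.0311 without Sle2c1_B1a 1). That difference also passed with a floor at 1 unit, with array weights and with only the arrays compared (adjusted p 0.0286 to 0.0431). In Sle2c1 mice the probe sets went opposite ways. The first differed by 0.16 without passing (adjusted p = 0.12, and 0.043 without Sle2c1_B1a 4), and the second was lower in B1a cells by -0.27 (adjusted p = 0.0367), which was lost without Sle2c1_B1a 3 or 4 or any 1 Sle2c1_Bs array (adjusted p 0.0583 to 0.0909). A direction for Gadd45b between the cell types of Sle2c1 mice is therefore not given. The strain differences in the 2 cell types differed by -0.64 for 1420197_at (SE 0.125, adjusted p = 0.0397), the only 1 of 19 members past this interaction test, which is 5.26% beside 0.462% of all probe sets (0.203% lower). It was lost in 12 of the 16 fits that left 1 array out (adjusted p up to 0.098, without Sle2c1_Bs 1) and with replicate number as a block in each cell type (adjusted p = 0.108). For 1450971_at the interaction was -0.35 (adjusted p = 0.251).

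Markers of other cell types also differed between the B1a groups. The summed level of 16 macrophage genes, all tested, ran from 21.9 to 36.5 units in B6 B1a cells and from 17.2 to 17.8 in Sle2c1 B1a cells. It ran from 20.1 to 21.6 in B6 Bs and from 16.7 to 19.5 in Sle2c1 Bs cells. In Sle2c1 B1a cells Timd4, Csf1r, C1qb, C1qc, Apoe and Marco lay at the floor on all 4 arrays. Of the 16 genes 8 passed as lower than in B6 B1a cells, beside 1.64% of all probe sets. In Bs cells the macrophage list had a median strain difference of -0.18, with 0 of 16 past the test. An unadjusted p under 0.05 was reached by 7, beside 3.45% of all probe sets. Gadd45b 1450971_at and 1420197_at differed in Bs cells by 0 and 0.0025. Lower in Sle2c1 B1a cells were also 1 of 6 T cell markers (Cd3g, -0.87, adjusted p = 0.0139) and 1 of 4 plasma cell markers (Jchain, -0.59, adjusted p = 0.00777). The 6 mast cell markers had a median difference of -0.35, with 0 past the test. An unadjusted p under 0.05 was reached by 1 of them, beside 17.2% of all probe sets. Between the B1a and Bs cells of B6 mice 9 of the 16 macrophage genes passed as higher in B1a cells. So did 5 of 6 mast cell markers, beside 9.21% of all probe sets. Within B6 B1a cells the mean macrophage level was 1.84, 1.37, 1.84 and 2.28 on arrays 1 to 4, and array 2, the lowest, also had the lowest Gadd45b level by 1450971_at and by 1420197_at. Array 4, the highest in macrophage markers, was not the highest for Gadd45b, with 2.82 by 1450971_at and 2.17 by 1420197_at against 2.90 and 2.34 on array 1. On array 2 1450971_at read 2.66 and the macrophage mean 1.37, each above its level on all 4 Sle2c1 B1a arrays (up to 2.52 and 1.11). The part of these markers in the Gadd45b difference was not tested.

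**Figure D2:**
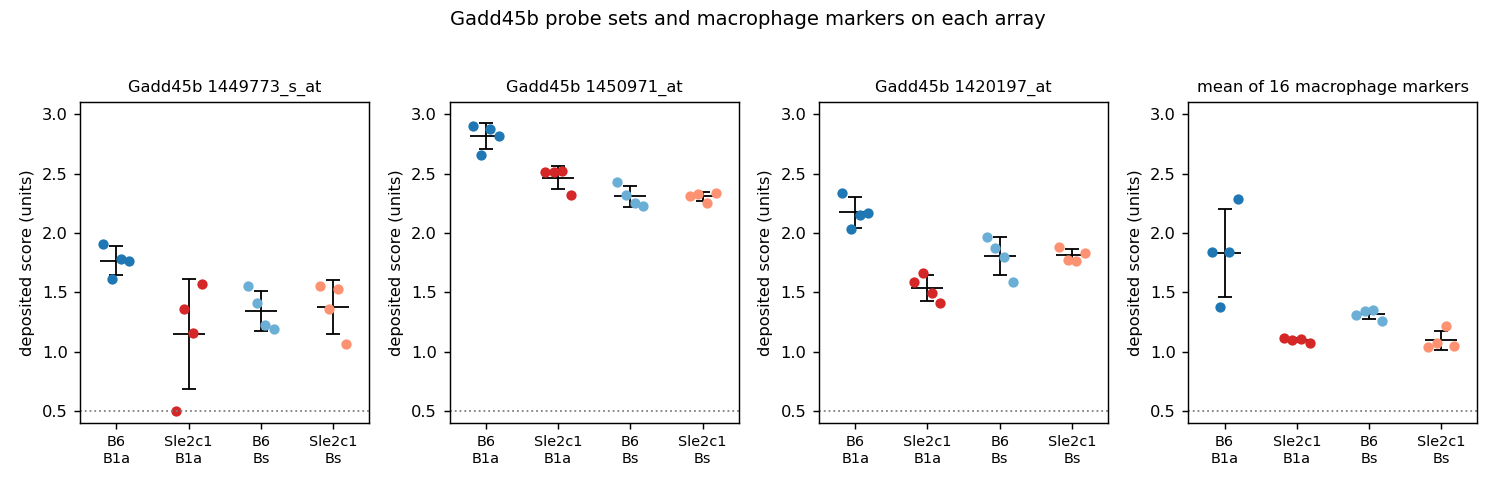
Level of the 3 Gadd45b probe sets and the mean level of the 16 macrophage markers on every array, in units of the deposited score (vertical axis), with points for arrays, lines for the mean and SD of each group (n = 4) and a dotted line at the floor of 0.495. B6 B1a arrays are the highest of all 16 for each of the 3 probe sets and for the markers, and in Sle2c1 B1a cells 1420197_at lies below its Bs level, with a mean of 1.54 against 1.81.

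Zmat3, a zinc finger protein that binds RNA and acts downstream of p53, was higher in B1a cells. Its probe set 1449353_at read 2.61, 2.65, 2.57 and 2.61 in B6 B1a cells and 2.42, 2.55, 2.40 and 2.63 in Sle2c1 B1a cells. In Bs cells it read 2.27, 2.24, 2.40 and 2.11 in B6 and 2.25, 2.33, 2.24 and 2.23 in Sle2c1. Within each strain the cell types did not overlap. B1a minus Bs was 0.355 in B6 (SE 0.0695, adjusted p = 0.00241) and 0.24 in Sle2c1 (SE 0.0695, adjusted p = 0.0225). The second call ended without Sle2c1_B1a 2, Sle2c1_B1a 4, Sle2c1_Bs 1 or Sle2c1_Bs 3 (adjusted p 0.052 to 0.0581). It also ended under 3 of 16 alternatives. Among them were median centring (adjusted p = 0.12) and the fit without Sle2c1_B1a 4, B6_Bs 3 and Sle2c1_Bs 3 (difference 0.187). The strain difference in B1a cells, -0.11, did not pass (95% interval -0.259 to 0.039).

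Mdm2, the feedback inhibitor, showed no difference that passed. Its brightest probe set, 1423605_a_at, averaged 2.99 ± 0.0457 (SD, n = 4) in B6 B1a, 2.88 ± 0.0591 in Sle2c1 B1a, 3.01 ± 0.108 in B6 Bs and 3.00 ± 0.0705 in Sle2c1 Bs cells. Its order of groups is not resolved beyond that spread. The strain difference in B1a cells was -0.105 (95% interval -0.242 to 0.0319) and that in Bs cells -0.02 (-0.154 to 0.119). Probe set 1427718_a_at lay near 1 unit in all groups (0.949 to 1.06). Probe set 1457929_at lay at the floor on all 4 B6 B1a arrays, with 1.11 and 1.31 on arrays 1 and 4 of Sle2c1 B1a cells, and read 0.95, 1.40 and 1.07 on arrays 2 to 4 of B6 Bs cells. Its cell type difference in B6, -0.48, is not a bound, because B6_Bs 1 lay at the floor too. It did not pass (adjusted p = 0.103) but passed without B6_Bs 1 (-0.645, adjusted p = 0.0232). It also passed with no floor, with a floor at the 30th percentile, after quantile normalization or median centring and with array weights (adjusted p 0.0103 to 0.0477).

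Ccng1, a cyclin that brings phosphatase 2A to Mdm2, was even across the groups by its brightest probe set, 1420827_a_at. Group means ran from 3.07 to 3.13, with all 4 differences between groups within 0.06 unit. Probe set 1450017_at was the only member with an unadjusted p under 0.05 between strains in Bs cells (difference 0.18, adjusted p = 1 in limma's test), and the 2 strains' arrays overlapped. In the main fit its difference between B1a and Bs cells of B6 mice, 0.185, did not pass (adjusted p = 0.116). It passed without B6_Bs 3 (0.25, adjusted p = 0.0278). With all arrays it passed after quantile normalization (0.253, adjusted p = 0.0196) and with array weights (0.212, adjusted p = 0.00449). Without Sle2c1_B1a 4, B6_Bs 3 and Sle2c1_Bs 3 it passed in B6 (adjusted p = 0.0171) and in Sle2c1 mice (0.20, adjusted p = 0.0498). The 3 Ccng1 probe sets share their source sequence.

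Trp53inp1, a nuclear protein of the p53 apoptotic programme that also acts in autophagy, was measured by 2 probe sets of the same source sequence. Probe set 1416926_at averaged 3.71 ± 0.0419 (n = 4) in B6 B1a, 3.61 ± 0.0772 in Sle2c1 B1a, 3.77 ± 0.068 in B6 Bs and 3.74 ± 0.0294 in Sle2c1 Bs cells. The Sle2c1 B1a arrays lay below the Sle2c1 Bs arrays without overlap, by -0.135, and the difference did not pass (adjusted p = 0.0937). It passed with a floor at 1 unit (adjusted p = 0.0268), with no filter (adjusted p = 0.0477) and with limma's trend and robust settings (adjusted p = 0.0111). Probe set 1416927_at differed between cell types in B6 by 0.38 and did not pass (adjusted p = 0.121), but passed without Sle2c1_B1a 3, an array outside that comparison that enters the shared estimate of spread (adjusted p = 0.0386).

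Sesn2, the sestrin induced by amino acid and endoplasmic reticulum stress, was dim. Probe set 1451599_at averaged between 0.95 and 1.02 units in the 4 groups, and its 4 differences between groups lay between 0.0175 and 0.0563 with adjusted p of 0.873 or more. Sesn2 and Trp53inp1 lie on chromosome 4, as does Cdkn2c, the cell cycle inhibitor gene of the congenic interval that the study is about. In gene order they are 304 and 565 protein-coding genes away from it.

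Perp, a membrane protein of desmosomes and a p53 target in apoptosis, was near or at the floor. Probe set 1416271_at lay at the floor on all 4 B6 B1a arrays and read 1.01, 1.03 and 1.05 on arrays 1 to 3 of Sle2c1 B1a cells, with array 4 at the floor. Among Bs cells it was above the floor on 1 of 4 B6 arrays (0.69) and 2 of 4 Sle2c1 arrays (0.56 and 0.92). The strain difference in B1a cells, 0.40 with array 4 of Sle2c1 at the floor too and so not a bound, did not pass (SE 0.122, adjusted p = 0.0925). Without Sle2c1_B1a 4, which stood apart in the principal components, it was at least 0.535 and passed (adjusted p = 0.00524), as did B1a minus Bs in Sle2c1 mice (0.41, adjusted p = 0.00576). That second difference also passed without Sle2c1_Bs 3 (0.38, adjusted p = 0.0347). With all arrays it passed after quantile normalization (adjusted p = 0.041) and with array weights (adjusted p = 0.00878). The strain difference passed with array weights too (0.474, adjusted p = 0.0137). Without Sle2c1_B1a 4, B6_Bs 3 and Sle2c1_Bs 3 both passed (adjusted p = 6.49e-05 between strains and 2.19e-05 between cell types).

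**Figure D3:**
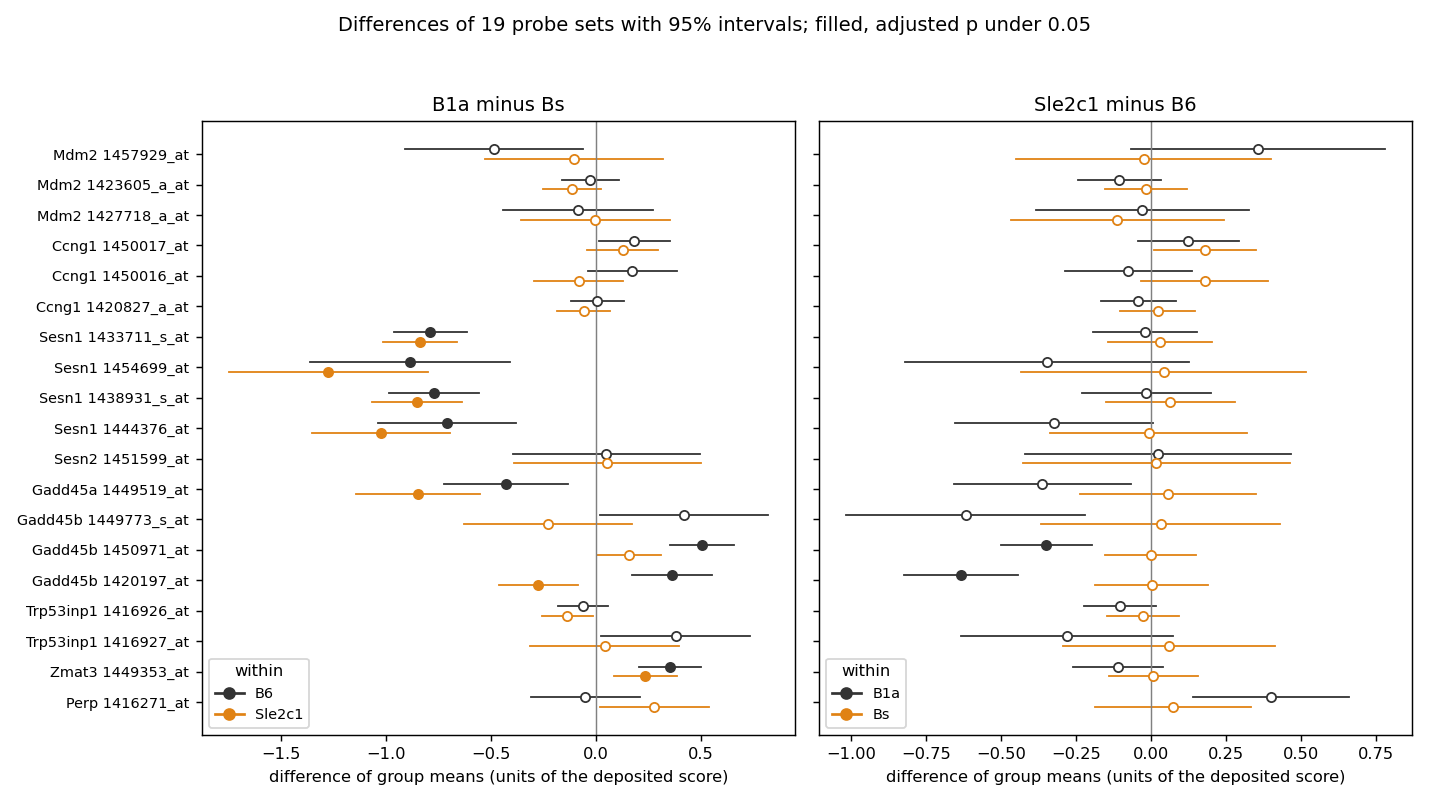
Difference of each of the 19 tested probe sets, in units of the deposited score (horizontal axis), between cell types within each strain (left) and between strains within each cell type (right). Lines are the 95% intervals of the fit and filled points have an adjusted p under 0.05. All 4 Sesn1 probe sets lie left of 0 in both cell type comparisons, 2 Gadd45b probe sets are filled in the strain comparison of B1a cells, and no point is filled in that of Bs cells.

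Between strains in Bs cells, 0 of the 19 members passed, beside 0.131% of all probe sets, and 1 had an unadjusted p under 0.05, beside 3.45% of all. Differences ran from -0.11 for Mdm2 1427718_a_at to 0.18 for the Ccng1 probe sets 1450016_at and 1450017_at. For Gadd45b 1420197_at, which differed in B1a cells, the difference in Bs cells was 0.0025 with a 95% interval of -0.187 to 0.192. For 0 of the 19 were the groups free of overlap, beside 2.34% of all. Deviations of the same-numbered Bs arrays of the strains correlated at 0.128 to 0.686, and with the replicate number as a block the count was again 0. With 1 probe set per gene it was 0 of 9, beside 0.152% of named genes, and for the interaction 0 of 9, beside 0.489%.

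The rest of the pathway was read from 6 lists with 62 tested genes, each by its brightest probe set, with Mdm4 in 2 of the lists. Between strains 0 of the 62 genes passed in B1a cells and 0 in Bs cells by limma, with 11 (17.7%) and 3 (4.84%) at an unadjusted p under 0.05. Of all named genes 3.54% and 0.152% passed, and 17.2% and 3.47% had an unadjusted p under 0.05. Between cell types 24 of the 62 passed in B6 (12 higher and 12 lower in B1a) and 19 in Sle2c1 (8 higher and 11 lower), beside 21.8% and 27.0% of all named genes. The lists were chosen with earlier results known, and their counts describe these arrays only.

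Of 13 tested regulators upstream of p53, 4 were lower and none higher in B1a cells of B6 mice, and 5 were lower and 1 higher in Sle2c1 mice. Among all named genes 21.8% and 27.0% passed in either direction. The median difference of the list was -0.14 in B6 and -0.12 in Sle2c1, and that of all named genes -0.0075 in both. Rchy1, which encodes the p53 ubiquitin ligase Pirh2, was lower by -0.41 (adjusted p = 0.00111) and by -0.505 (adjusted p = 0.000152). Chek2, the checkpoint kinase that phosphorylates p53, differed by -0.45 (adjusted p = 0.0497) and -0.78 (adjusted p = 0.00163). Atr, the kinase of stalled replication forks, differed by -0.23 (adjusted p = 0.00757) and -0.21 (adjusted p = 0.0104). Cop1, another p53 ubiquitin ligase, differed by -0.265 in B6 (adjusted p = 0.0367) and, outside the naming rule, by -0.26 in Sle2c1 (adjusted p = 0.0323), and Hipk2, a kinase that activates p53, was higher by 0.27 in Sle2c1 (adjusted p = 0.00272).

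Of 16 targets in arrest, repair and metabolism, 3 were higher and 4 lower in B1a cells of B6, and 1 was higher and 3 lower in Sle2c1. The shares of all named genes past the test were 21.8% in B6 and 27.0% in Sle2c1. Phlda3, an inhibitor of Akt, lay at the floor on all 8 B1a arrays and averaged 1.57 ± 0.474 (SD, n = 4) in B6 Bs and 1.79 ± 0.206 in Sle2c1 Bs cells, so that its differences of -1.08 (adjusted p = 0.000511) and -1.29 (adjusted p = 7.53e-05) are lower bounds. Polk, a polymerase that copies past DNA lesions, was higher by 0.445 (adjusted p = 0.000204) and 0.36 (adjusted p = 0.000956). Rrm2b, the p53-inducible ribonucleotide reductase subunit, was lower by -0.21 (adjusted p = 0.00902) and -0.25 (adjusted p = 0.00233). Tigar, a phosphatase that restrains glycolysis, was higher by 0.21 in B6 (adjusted p = 0.00922). Ddb2, which recognises ultraviolet damage, differed by -0.40 in Sle2c1 (adjusted p = 0.0047) and, outside the naming rule, by -0.31 in B6 (adjusted p = 0.0241). Cdkn1a, which encodes the Cdk inhibitor p21, is named after its values were seen. It was higher in B1a than in Bs cells of B6 by 0.65 (adjusted p = 0.00991) and differed by -0.07 in Sle2c1. Its strain difference in B1a cells, -0.525, did not pass (adjusted p = 0.0875).

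Of 9 apoptosis targets 2 were higher in B1a cells of B6, and 1 was higher and 1 lower in Sle2c1. These counts are near or below the shares of all named genes past the test, 21.8% in B6 and 27.0% in Sle2c1. Aen, an exonuclease of apoptotic cells, was higher by 0.31 (adjusted p = 0.00588) and 0.38 (adjusted p = 0.00103). Pmaip1, which encodes the BH3-only protein Noxa, was higher by 0.23 in B6 (adjusted p = 0.0247). The death receptor gene Fas was lower by -0.45 in Sle2c1 (adjusted p = 0.0107), and its strain difference in B1a cells, -0.44, missed the threshold (adjusted p = 0.0512).

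The list of relatives of the members included Gadd45gip1, which encodes a protein that binds the Gadd45 proteins and is not their paralogue. Of its 7 tested genes 3 were higher and 2 lower in B1a cells of B6, and 3 were higher and 1 lower in Sle2c1. Beside these, 21.8% and 27.0% of all named genes passed. Ccng2, the FoxO-responsive relative of Ccng1, was lower by -0.77 (adjusted p = 1.91e-06) and -0.775 (adjusted p = 1.5e-06). Gadd45g was higher by 0.855 (adjusted p = 4.36e-05) and 0.58 (adjusted p = 0.000968), the opposite direction to Gadd45a. Trp53inp2, a relative of Trp53inp1 that acts in autophagy, was higher by 0.53 (adjusted p = 0.000491) and 0.555 (adjusted p = 0.000258), although its other probe set went the other way in Sle2c1. Gadd45gip1 lay at the floor on all 8 Bs arrays and was higher in B1a cells by at least 1.16 (adjusted p = 1.47e-07) and at least 1.27 (adjusted p = 4.58e-08).

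Of 10 genes of the integrated stress response 2 were higher and 2 lower in B1a cells of B6, and 1 was higher in Sle2c1. For all named genes the shares past the test were 21.8% and 27.0%. Atf3, a transcription factor induced within hours by many stresses, averaged 1.94 ± 0.238 (SD, n = 4) in B6 B1a and 1.69 ± 0.384 in Sle2c1 B1a cells. It was near the floor in B6 Bs cells (0.501 ± 0.0125) and at it in all Sle2c1 Bs cells. Its differences were 1.44 (adjusted p = 1.07e-05) and at least 1.20 (adjusted p = 5.03e-05). In B6, Eif2ak3, the PERK kinase, was lower by -0.37 (adjusted p = 0.0184), Eif2ak2, the double-stranded RNA sensor PKR, by -0.525 (adjusted p = 0.0459), and Chac1, a glutathione-degrading enzyme, was higher by at least 0.50 (adjusted p = 0.0491). The other probe sets of Eif2ak3 and Eif2ak2, like those of Aen in B6 and of Hipk2 in Sle2c1, did not all share the sign of the probe set given.

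Of 8 feedback targets of NF-kB, 2 were higher in B1a cells of B6, and 1 was higher and 1 lower in Sle2c1. These counts are near the shares of all named genes past the test, 21.8% in B6 and 27.0% in Sle2c1. Icam1, an adhesion molecule, was higher by 0.59 (adjusted p = 0.000265) and 0.40 (adjusted p = 0.00423). Nfkbiz, a nuclear cofactor of NF-kB, was higher by 0.37 in B6 (adjusted p = 0.00639), and Nfkb2, the p100 precursor, was lower by -0.52 in Sle2c1 (adjusted p = 0.0353). The median strain difference of this list in B1a cells was -0.195, beside 0.00375 for all named genes, with 0 of 8 past the test and 3 at an unadjusted p under 0.05, a level that 17.2% of all named genes reached.

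**Figure D4:**
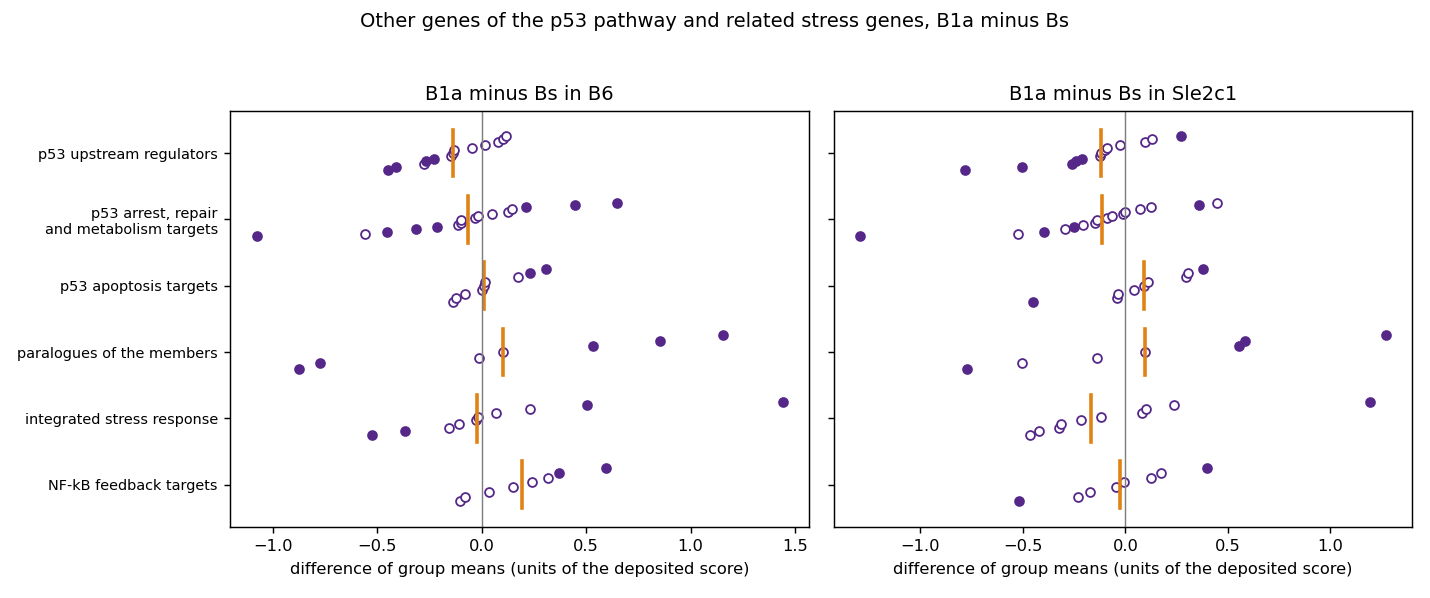
Difference between B1a and Bs cells of each tested gene of the 6 lists, in units of the deposited score (horizontal axis), in B6 (left) and Sle2c1 mice (right). Filled points have an adjusted p under 0.05, which holds for 24 genes in B6 and 19 in Sle2c1, and the vertical bars are the median of each list.

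The patterns of the 3 genes with the largest spread of group means were set against those of 15128 other named genes by the mean absolute difference over the 16 arrays, for which a smaller value means a closer level on each array. For Sesn1 the nearest genes were Limd2 at 0.0944 units, H2bc21 at 0.0988 and Irf2bpl at 0.102. For Gadd45b they were Inpp4a and Map4, both at 0.103, and Dhx33 at 0.106. For Gadd45a they were 4930445K14Rik at 0.126, Cebpzos at 0.129 and Dennd4c at 0.157. The measure compares scores of different probe sets, whose levels also depend on the probes, and is a description.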

How the data were processed

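RNA of 16 samples was amplified and labelled with biotin, per the labels' protocols. The authors deposited 1 table whose unit is a score that behaves like a log signal shifted array by array. How it was normalized, and the genome build, are not given in the sources used here. No counts underlie it, so the number of arrays limits the precision. Log2 values had been assumed in planning.

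A floor of 0.495 was set, the median of the 16 arrays' 40th percentiles. A probe set was tested if 4 or more of the 16 arrays put it over their own 40th percentile (35032 did, array controls left out). The platform annotation gave 34958 probe sets 1 gene, 932 several and 9211 none, and 99.42% of the first matched RefSeq. The 4 group means were fitted in 1 model in R 4.3.3 by limma 3.58.1, with statmod 1.5.0, two-sided, with Benjamini-Hochberg adjustment. The fit was tested on simulated data. Comparisons between groups share arrays, so their results are not independent.

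Deviations of same-numbered arrays correlated at 0.128 to 0.686 for the 4 pairs of Bs arrays of the strains. The own number was the best match for 3 of these 4. The titles number the arrays and state no pairing, so whether the numbers mark pairs is not known. For B1a arrays 2 of 4 pairs were over 0.1. Blocked fits, other floors, filters, scalings, thresholds and forms of the test, and leaving out arrays were the alternatives. All members were named, and from each other list up to 4 genes per comparison with the smallest adjusted p among those that passed. The members and lists were chosen with earlier results of these data known.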

Additional observations from a re-analysis of the deposited data

Results flagged for a closer look

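In 8 of 73 groups of 4 arrays examined, 1 array lay apart from the other 3 by Dixon's criterion at the 95% level. The rate of about 1 in 20 groups by chance does not apply to groups with arrays at the floor. Where the other 3 arrays lie at the floor, as for Perp on B6_Bs 3, the flag is certain. The 8 of 73 is therefore not set against chance. Mdm2 1423605_a_at read 2.97 on Sle2c1_B1a 3 and 2.84 to 2.86 on the others. Ccng1 1420827_a_at read 2.96 on B6_Bs 4 (others 3.15 to 3.16) and 3.02 on Sle2c1_Bs 4 (others 3.16 to 3.18). Gadd45b 1450971_at read 2.32 on Sle2c1_B1a 4 (others 2.51 to 2.52). Trp53inp1 1416927_at read 0.85 on Sle2c1_B1a 3 (others 1.54 to 1.65). Perp lay at the floor of 0.495 on Sle2c1_B1a 4 (others 1.01 to 1.05), at 0.69 on B6_Bs 3 (others at the floor) and at 0.92 on Sle2c1_Bs 3 (others up to 0.56).

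The strain difference of Gadd45b 1420197_at differed between the cell types by -0.64 (interaction test, adjusted p = 0.0397). This call was lost with replicate number as a block in each cell type (adjusted p = 0.108), in 12 of 16 fits without 1 array and under 9 of 15 alternatives. In B1a cells it was -0.635, with all 4 Sle2c1 arrays below all 4 B6 arrays, and in Bs cells 0.0025. Of 16 macrophage markers 8 were lower in Sle2c1 B1a cells too, beside 1.64% of all probe sets, and in Bs cells 0 of 16 passed (median difference -0.18). Their part was not tested.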

How the results depend on the processing

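The 18 member calls were recomputed under 16 alternatives and without each array, where a value could be had. Of 566 values 501 kept the call, 65 ended it and 0 reversed it. With 1 probe set per gene, the counts of members past the test were 4 in the cell type comparison of B6 (8 with all probe sets), 3 in that of Sle2c1 (7), 1 between strains in B1a cells (2) and 0 for the interaction (1). Fewer probe sets tested account for this by construction. The interaction count was 0 at an adjusted p under 0.01, with no floor, a floor at the 30th percentile, the filter on 8 arrays, quantile normalization, median centring, and limma with trend and robust settings. The strain count in B1a cells was 1 at an adjusted p under 0.01, 4 at one under 0.10, 4 with array weights and 1 with only the arrays compared. Without single arrays it ran from 2 to 4, with 4 without Sle2c1_B1a 4, where Perp and Gadd45b 1449773_s_at passed too. The interaction count ran from 0 to 1, the cell type counts from 7 to 9 in B6 and from 5 to 7 in Sle2c1. The strain count in Bs cells was 0 throughout. The causes were not tested.

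With the replicate number as a block, the counts were 7 and 7 between cell types in B6 and Sle2c1, 1 for the interaction, 2 between strains in B1a cells and 0 in Bs cells. With the block within each cell type they were 7, 7, 0, 2 and 0. Gadd45a in B6 and the Gadd45b interaction were the calls that ended. Without Sle2c1_B1a 4, B6_Bs 3 and Sle2c1_Bs 3 the counts were 8, 7, 1, 3 and 0, and the interaction call was Perp (0.51, adjusted p = 0.00579) in place of Gadd45b (adjusted p = 0.13). This set held Sle2c1_Bs 3 and not B6_Bs 1, and so differs from the arrays named for the principal components. Median centring turned the split of all probe sets between strains in B1a cells from 657 higher and 574 lower to 632 and 854, and quantile normalization that in Bs cells from 38 and 8 to 13 and 5.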
